A study of Mus musculus with 5 samples.

Results

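RNA levels of 10 genes that encode enzymes of glycolysis were compared between pro-B cells of control mice and of mice with *Mef2c*, the gene of a transcription factor, deleted in haematopoietic cells. Pro-B cells are the early B-lineage cells of the bone marrow that are rearranging their immunoglobulin heavy chain genes. The genes were *Hk1*, *Hk2*, *Gpi1*, *Pfkl*, *Pfkp*, *Aldoa*, *Tpi1*, *Pgk1*, *Eno1* and *Ldha*, chosen by name, and every probe set that the array annotation gave to 1 of them alone was used. This gave 8 probe sets of 7 genes (1437974_a_at of *Hk1*, 1422612_at of *Hk2*, 1439148_a_at of *Pfkl*, 1416069_at of *Pfkp*, 1415918_a_at of *Tpi1*, 1417864_at and 1438640_x_at of *Pgk1* and 1419737_a_at of *Ldha*), among 23809 probe sets tested and 17323 genes. No probe set carried the symbol *Gpi1*, *Aldoa* or *Eno1* in the annotation used, and these 3 genes were not analysed here. Pro-B cells had been sorted by FACS as B220+IgM-CD43+CD24+ cells from the bone marrow of mice aged 9 months, and their RNA was hybridised to 5 Affymetrix arrays. Control mice gave 3 of these, and the other 2 came from Vav-Cre *Mef2c* fl/fl animals. Vav-Cre deletes the floxed *Mef2c* gene in all haematopoietic cells, so that the deletion is neither restricted to nor timed in pro-B cells. The methods name age-matched mice of the genotypes *Mef2c* fl/fl, *Mef2c* fl/+ and Vav-Cre *Mef2c* fl/+ as controls, and the sources used here do not say which of them each control array came from. The labels do not say whether each array was 1 mouse, so p-values measure the spread between these arrays.

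Glycolysis splits glucose into pyruvate in the cytosol and yields ATP, reducing equivalents and precursors for biosynthesis. Hexokinases trap glucose in the cell, phosphofructokinase commits it to the pathway, triose phosphate isomerase lets both products of the split sugar go on, phosphoglycerate kinase recovers ATP, and lactate dehydrogenase turns pyruvate into lactate. Early B-cell progenitors divide in bursts after signals from the IL-7 receptor and the pre-B-cell receptor, and proliferating lymphocytes are known for a high glycolytic rate. MYC and HIF-1 are known activators of many glycolytic genes.

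Deposited values were on a linear scale and look like powers of e rather than of 2 of the log2 signal, in which case a doubled deposited value stands for a 1.62-fold higher signal. Folds and log2 fold changes are of geometric means of deposited values unless named as signal, and a negative log2 fold change means lower in *Mef2c*-deficient cells. A probe set was called where limma gave it a fold of 2 or more and an unadjusted p no higher than 0.05, the numbers that the study states. Here the fold is of deposited values, and it is looser than a fold of 2 in signal if these are powers of e. At a fold of 2 in signal 2025 probe sets were called lower and 1089 higher. Where a *Mef2c*-deficient array was left out, the group was a single array that was assumed to vary like the controls, so that the spread behind such a call is that of the controls alone. By the call rule 13.5% of all probe sets were called lower and 10.1% higher (3206 and 2401 of 23809). The split was 4690 and 1558 after centring on array medians, and 833 and 10336 with arrays centred on housekeeping genes. No probe set had an adjusted p under 0.05 (smallest 0.102, limma with Benjamini-Hochberg adjustment over all 23809 probe sets), while 7038 had an unadjusted p under 0.05 and the methods' t-test gave 9 at an adjusted p under 0.05. *Mef2c* itself had values of 14006, 20854 and 17220 on the control arrays and 7379 and 6219 on the *Mef2c*-deficient arrays, and its log2 fold change of −1.34 (SE 0.28) passed the call. It did not pass after quantile normalization (−0.43), cyclic loess (−0.32), housekeeping centring (−0.60) or array weighting (−1.26), or with the fold threshold set in signal. The sources used here do not say whether its probe set covers the deleted exon.

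Markers of other cell types were measured on all arrays, and their values differed between arrays. The pro-B marker *Cd79a*, a chain of the B-cell receptor complex, was between 153021 and 257531 on all 5 arrays, but other pro-B markers were not as steady. *Ebf1*, a transcription factor of the B lineage, was 29295 to 35416 on the other 4 arrays and 3026 on *Mef2c*-deficient replicate 2, and *Blnk*, a linker protein downstream of the pre-B-cell receptor, was 18899 to 41783 and 2661. *Cd24a*, which encodes the CD24 of the sort, was 528504 to 683783 on the other 4 arrays and 152861 on that array. *Ptprc*, also among the pro-B markers, went the other way, at 9744 there and 1805 to 2446 on the other 4 arrays. *Cd79b*, *Dntt*, *Rag1* and *Rag2* were within the control range there, that of *Rag2* running from 1098 to 22769. *Igll1*, a part of the surrogate light chain, was 32084 to 97663 on control arrays and 25064 and 26275 on *Mef2c*-deficient arrays. *Spn*, which encodes the CD43 of the sort, was 28712 to 53154 on control and 12954 and 22550 on *Mef2c*-deficient arrays. *Il7r*, which encodes a chain of the IL-7 receptor, was 8949 to 14250 on control and 7604 and 4832 on *Mef2c*-deficient arrays. The median log2 difference of the 12 measured markers from the control mean was −0.18 on *Mef2c*-deficient replicate 1 and −0.66 on replicate 2. None of the 12 was called, where 13.5% of all probe sets were called lower and 10.1% higher. *Blnk* (−1.85), *Ebf1* (−1.77), *Dntt* (−1.66), *Igll1* (−1.25), *Spn* (−1.05) and *Ptprc* (1.15) reached the fold of the call but not its p threshold. The summed value of the 12 was 948093 to 1580833 on control and 1245297 and 676272 on *Mef2c*-deficient arrays (*Vpreb1* and *Pax5* were not measured here). The sum of 15 neutrophil and macrophage markers was 4490466, 4858223 and 2327037 on the control arrays and 2507821 and 5734882 on the *Mef2c*-deficient arrays. The sum of 11 T and NK cell markers was 11075 to 13728 on control arrays and 6885 and 43009 on *Mef2c*-deficient arrays, that of 5 plasmacytoid dendritic cell markers 36041 to 51472 against 11165 and 80071, and that of 5 erythroid markers 732 to 782 against 1389 and 5123. The sum of 5 mature B and plasma cell markers was 3078 to 25541 on control arrays and 7225 and 27716 on *Mef2c*-deficient arrays. By the call rule 2 T and NK markers were lower and 2 higher. In addition 1 neutrophil and macrophage marker and 1 erythroid marker were called higher. In the mature B and plasma cell list 1 was called lower, and none of the dendritic cell markers was called. The lowest deposited value in the data was 3.16, so that a value above 0 does not show that a marker was present. Of the T and NK markers 3, and of the erythroid markers 2, were below the array median on all 5 arrays. *Cd3e*, a chain of the T-cell receptor complex, was 13843 on *Mef2c*-deficient replicate 2 and 232 to 387 on the other 4 arrays. The 15 bacterial hybridisation control probe sets lay 2.69 above the control mean in log2 median on *Mef2c*-deficient replicate 1, and between −0.87 and 0.72 on the other 4 arrays. The part of these differences in the results on glycolytic enzymes was not tested.

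*Pfkl*, *Tpi1* and *Pgk1* were called lower in *Mef2c*-deficient pro-B cells, by 7.02-fold, 4.59-fold and 2.04-fold, and no glycolytic enzyme was called higher. Thus 3 of 8 probe sets (37.5%) were called lower, where 13.5% of all probe sets were. Bright probe sets were called lower more often than dim ones whatever they encode, and all 8 lay above the array median on all 5 arrays. By mean level 2 were in the eighth, 3 in the ninth and 3 in the brightest decile of all probe sets, of which 27.3%, 38.5% and 31.8% were called lower. The share of the glycolytic enzymes was therefore close to that of probe sets as bright. In the brightest decile (2381 probe sets) 0.252% were called higher. The 5 probe sets not called were those of *Hk1*, *Hk2*, *Pfkp* and *Ldha* and a second one of *Pgk1*. In RNA pooled from many cells, fewer cells that express a gene and less of its RNA per cell cannot be told apart.

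**Figure D1:**
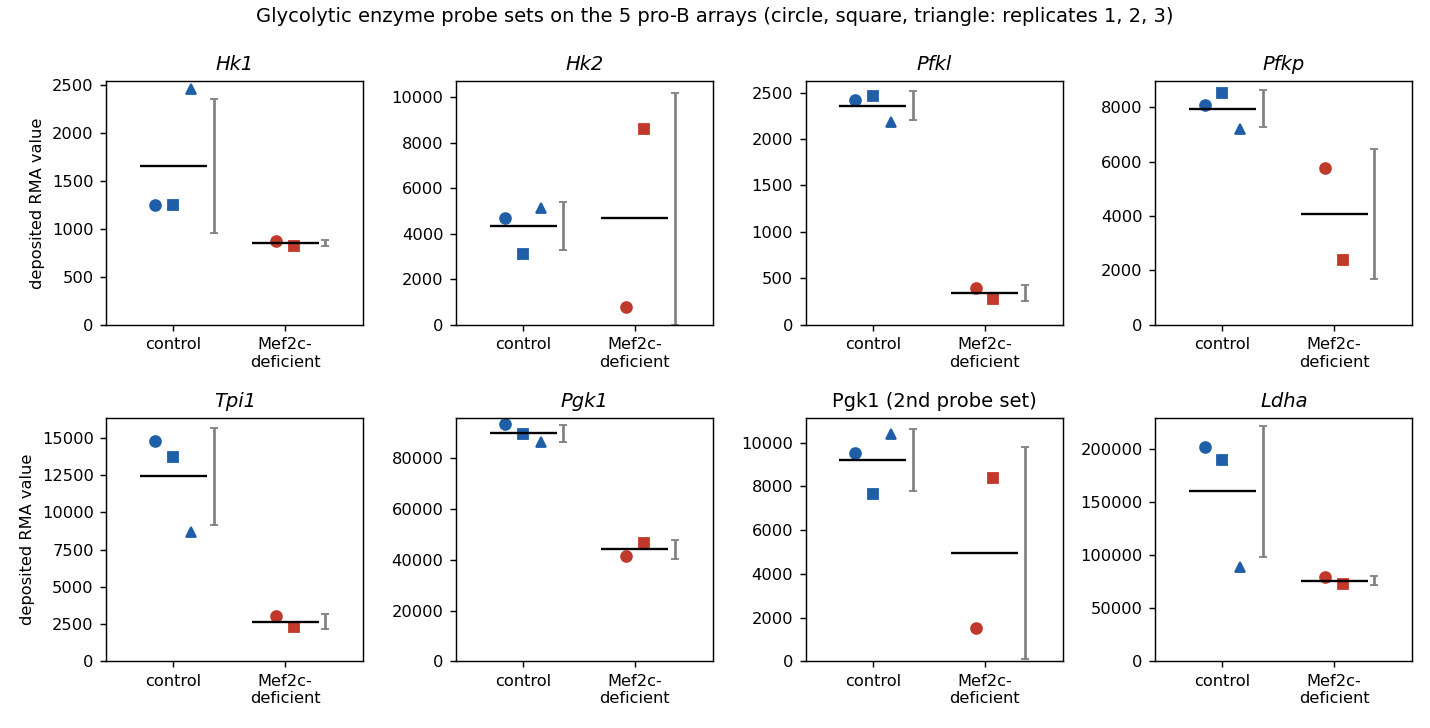
Deposited RMA value (vertical axes, from 0, each panel on its own scale) of each glycolytic enzyme probe set on the 3 control (blue) and 2 *Mef2c*-deficient (red) pro-B arrays. Symbols mark the replicates, black lines the group means and grey bars ± 1 SD, that of *Hk2* being cut at 0. *Pfkl*, *Tpi1* and the brighter *Pgk1* probe set show both *Mef2c*-deficient arrays well below the controls, whereas *Hk2* and the second *Pgk1* probe set split the *Mef2c*-deficient arrays.

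The promoters of the 3 called genes and of *Ldha* are shown because 2 activators of glycolysis, HIF-1 and MYC, bind short cores in such sequences. The sequences are the 250 bases before the annotated start, from RefSeq on GRCm38.p6, 5′ to 3′ on the strand of the gene, with matches to the hypoxia response core (ACGTG or GCGTG on either strand) in capitals, an E-box CACGTG holding that core.
*Pfkl* (chr10:78009808-78010057, minus strand): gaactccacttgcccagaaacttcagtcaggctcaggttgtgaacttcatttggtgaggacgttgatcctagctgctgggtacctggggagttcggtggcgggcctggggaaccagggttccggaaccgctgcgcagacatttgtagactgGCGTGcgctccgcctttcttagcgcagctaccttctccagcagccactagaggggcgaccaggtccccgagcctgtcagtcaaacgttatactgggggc
*Tpi1* (chr6:124814159-124814408, minus strand): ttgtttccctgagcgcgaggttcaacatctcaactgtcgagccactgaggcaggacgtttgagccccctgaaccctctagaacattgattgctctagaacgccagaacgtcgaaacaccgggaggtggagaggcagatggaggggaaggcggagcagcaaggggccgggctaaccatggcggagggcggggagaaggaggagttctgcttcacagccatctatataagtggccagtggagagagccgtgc
*Pgk1* (chrX:106186850-106187099, plus strand): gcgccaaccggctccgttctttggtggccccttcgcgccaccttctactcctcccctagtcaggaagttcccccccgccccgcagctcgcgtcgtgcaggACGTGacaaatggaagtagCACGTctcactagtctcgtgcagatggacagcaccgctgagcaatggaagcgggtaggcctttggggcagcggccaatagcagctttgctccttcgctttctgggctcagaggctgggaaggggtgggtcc
*Ldha* (chr7:46845554-46845803, plus strand): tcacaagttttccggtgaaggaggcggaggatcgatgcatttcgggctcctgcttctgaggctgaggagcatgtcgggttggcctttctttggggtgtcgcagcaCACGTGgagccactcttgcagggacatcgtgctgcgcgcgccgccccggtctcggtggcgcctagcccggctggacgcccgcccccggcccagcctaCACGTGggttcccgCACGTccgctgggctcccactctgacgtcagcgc

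The *Pfkl* promoter held 1 hypoxia response core and that of *Tpi1* none, whereas the *Pgk1* promoter held 2 and the *Ldha* promoter held 2 E-boxes and 1 further core. All 10 genes had an entry in RefSeq, with 16 promoters in all. The hypoxia response core was in at least 1 promoter of 8 of the 10 genes and in 12 of the 16 promoters, some of which overlap and share a match, and in 38.6% of the 32851 promoters of all genes. The E-box CACGTG was in 1 of the 16, that of *Ldha*, and in 6.02% of all promoters. The element bound by MEF2 factors was in 0 of the 16 and in 2.92% of all promoters. The hypoxia response core holds a CG, and G and C made up 49.6% to 71.2% of the bases of the 16 promoters. The shares over all promoters were not matched for this. These matches are of letters only and do not show that a factor was bound.

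Hexokinases catalyse the entry step. *Hk1*, the hexokinase found in most tissues, had values of 1253, 1253 and 2459 on the control arrays and 870 and 826 on the *Mef2c*-deficient arrays. Both *Mef2c*-deficient arrays were below every control, but control replicate 3 was 1.96-fold above the other two, which were exactly tied, as values of 6985 probe sets were between control arrays. Control cells had a mean of 1655 ± 696 (SD, n = 3), and *Mef2c*-deficient cells had 848 ± 31.5 (SD, n = 2). A log2 fold change of −0.89 (SE 0.39, 95% interval −1.90 to 0.12, limma adjusted p = 0.201) was not called.

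*Hk2*, the inducible hexokinase of proliferating cells, had values of 4694, 3126 and 5138 on the control arrays and 760 and 8582 on the *Mef2c*-deficient arrays. The *Mef2c*-deficient arrays lay on either side of the controls and differed from each other by 11.3-fold. The log2 fold change of −0.73 (SE 1.06, limma adjusted p = 0.618) had a 95% interval from −3.47 to 2.02 and gives no direction. It was −2.47 from *Mef2c*-deficient replicate 1 alone and 1.02 from replicate 2 alone. The array with the higher *Hk2* value was also the array with the higher sums of T and NK, dendritic, erythroid and myeloid markers. The median log2 differences of these lists from the control mean were 2.43, 1.65, 2.87 and 0.72 on it. Not every marker was higher there. *Prf1* and *Gzma* were below every control, and *Mpo* and *Elane* below control replicates 1 and 2. The part of these cells in the *Hk2* value was not tested.

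Phosphofructokinase catalyses the committed step, and its liver-type and platelet-type subunits were among the chosen genes. The muscle-type subunit, *Pfkm*, was measured as one of the other enzymes of the pathway. It had values of 1960, 1542 and 804 on the control arrays and 938 and 2250 on the *Mef2c*-deficient arrays. Its log2 fold change of 0.11 (SE 0.58) was not called. *Pfkl*, the liver-type subunit, had values of 2424, 2467 and 2181 on the control arrays and 399 and 282 on the *Mef2c*-deficient arrays. Every control was more than 5-fold above both *Mef2c*-deficient arrays. The mean fell from 2357 ± 154 (SD, n = 3) to 341 ± 82.8 (SD, n = 2). By geometric means *Pfkl* was 7.02-fold lower, or 3.86-fold lower in signal. The log2 fold change was −2.81 (SE 0.27, 95% interval −3.50 to −2.12, limma adjusted p = 0.102). Only 10 of the 23809 probe sets had a smaller p, and 202 (0.848%) a lower log2 fold change. In its own decile by level 1.76% of probe sets had a lower one. The call held under every alternative setting run, with log2 fold changes from −3.06 to −2.07.

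*Pfkp*, the platelet-type subunit, had values of 8105, 8532 and 7210 on the control arrays and 5782 and 2393 on the *Mef2c*-deficient arrays. Both *Mef2c*-deficient arrays were below the controls, replicate 1 narrowly and replicate 2 clearly. The log2 fold change of −1.09 (SE 0.43, limma adjusted p = 0.175) reached the fold but narrowly missed the p threshold of the call. It was called with array weights at −1.13 and with arrays centred on their medians at −1.32, and at −1.73 where *Mef2c*-deficient replicate 2 stood alone against the controls. Of the probe sets of its decile 48.3% had a lower log2 fold change.

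The log2 ratio of *Pfkl* to *Pfkp* was −1.74, −1.79 and −1.73 on the control arrays and −3.86 and −3.09 on the *Mef2c*-deficient arrays. The controls were close together and both *Mef2c*-deficient arrays were lower, a difference of −1.72 between the means. An exact permutation test whose two-sided p doubles that of the smaller tail gave p = 0.2. This is the smallest p that this form of the test can give with 3 against 2 arrays, so it cannot decide whether the ratio differed. The log2 ratio of *Hk1* to *Hk2* was −1.91, −1.32 and −1.06 on the control arrays and 0.19 and −3.38 on the *Mef2c*-deficient arrays, without order (exact permutation p = 1). These 2 pairs were chosen after the values were seen, and a ratio of probe sets compares their changes and not the amounts of the subunits.

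*Tpi1*, which interconverts the pair of triose phosphates, had values of 14824, 13724 and 8708 on the control arrays and 3025 and 2295 on the *Mef2c*-deficient arrays. The lowest control, replicate 3, was still more than 2-fold above both *Mef2c*-deficient arrays. The mean fell from 12418 ± 3260 (SD, n = 3) to 2660 ± 517 (SD, n = 2). By geometric means *Tpi1* was 4.59-fold lower, or 2.88-fold lower in signal. The log2 fold change was −2.20 (SE 0.34, 95% interval −3.09 to −1.31, limma adjusted p = 0.102), and 2.73% of the probe sets of the brightest decile had a lower one. The call held under every alternative setting run, from −2.44 to −1.18.

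*Pgk1*, whose product makes the first ATP of the pathway, was measured by 2 probe sets that differed in their second *Mef2c*-deficient array. The brighter had values of 93135, 89543 and 86342 on the control arrays and 41498 and 46602 on the *Mef2c*-deficient arrays. Values within each group were close and the groups were far apart. Its mean of 89674 ± 3398 (SD, n = 3) in control cells stood against 44050 ± 3609 (SD, n = 2) without *Mef2c*, and the log2 fold change was −1.03 (SE 0.22, 95% interval −1.60 to −0.45, limma adjusted p = 0.105). In signal this was 1.64-fold, and 41.2% of the brightest decile of probe sets had a lower log2 fold change. It lay so near the threshold that the call was lost without control replicate 1 (−0.9996) and without *Mef2c*-deficient replicate 1 (−0.94), and at a fold of 2 in signal. Further quantile normalization (−0.50), cyclic loess (−0.15) and centring on housekeeping genes (−0.29) also ended it.

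The second *Pgk1* probe set, of a type that may bind transcripts of related sequence, had values of 9544, 7668 and 10417 on the control arrays and 1513 and 8398 on the *Mef2c*-deficient arrays. Here *Mef2c*-deficient replicate 2 lay among the controls and only replicate 1 was low, and the log2 fold change of −1.36 (SE 0.76, limma adjusted p = 0.262) was not called. On this probe set, as on that of *Hk2*, *Mef2c*-deficient replicate 2 was far above replicate 1, here 5.55-fold. With replicate 1 alone against the controls it was called lower, at −2.59.

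*Ldha*, the lactate dehydrogenase subunit that predominates in proliferating cells, was the brightest of the 8. It had values of 202116, 189965 and 89275 on the control arrays and 79454 and 72971 on the *Mef2c*-deficient arrays. Both *Mef2c*-deficient arrays were below the controls, but control replicate 3 was close to them, at 0.455 of the mean of the other controls. Its log2 fold change of −0.99 (SE 0.44, 95% interval −2.12 to 0.15, limma adjusted p = 0.204) was not called. Without control replicate 3 it was −1.36 and was called. Control replicate 3 also had the lowest sum of neutrophil and macrophage markers and the highest *Rag1* value among the controls, 140899 against 19797 and 13317, *Rag1* being a subunit of the V(D)J recombinase. The part of these differences between control arrays was not tested.

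**Figure D2:**
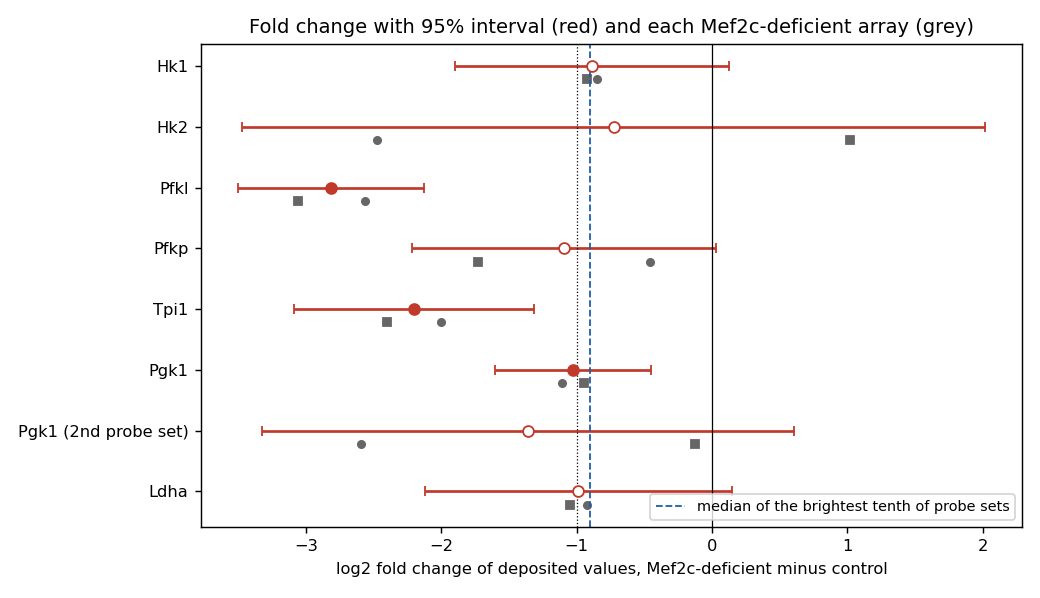
Log2 fold change of deposited values (horizontal axis, *Mef2c*-deficient minus control) of each glycolytic enzyme probe set with its limma 95% interval (red, filled where called), and below it each *Mef2c*-deficient array (grey circle replicate 1, grey square replicate 2) minus the control mean. The dotted line is a fold of 2 and the dashed line the median of the brightest decile of probe sets, −0.90. The intervals of *Pfkl* and *Tpi1* lie wholly below both lines.

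The log2 fold change was below 0 for all 8 probe sets, and its median was −1.06 against 0.19 over all 23809 probe sets. The medians of the eighth, ninth and brightest deciles were −0.84, −1.07 and −0.90. For 6 of 8 probe sets (75.0%) the *Mef2c*-deficient arrays lay below every control array, as they did for 23.5% of all probe sets and 61.2% of the brightest decile. The median over the 8 was −1.56 for *Mef2c*-deficient replicate 1 and −0.995 for replicate 2. Of the probe sets in the same decile 1.76% had a lower fold change than *Pfkl* and 2.73% than *Tpi1*, whereas for the other 6 the share was 34.2% to 67.7%.

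**Figure D3:**
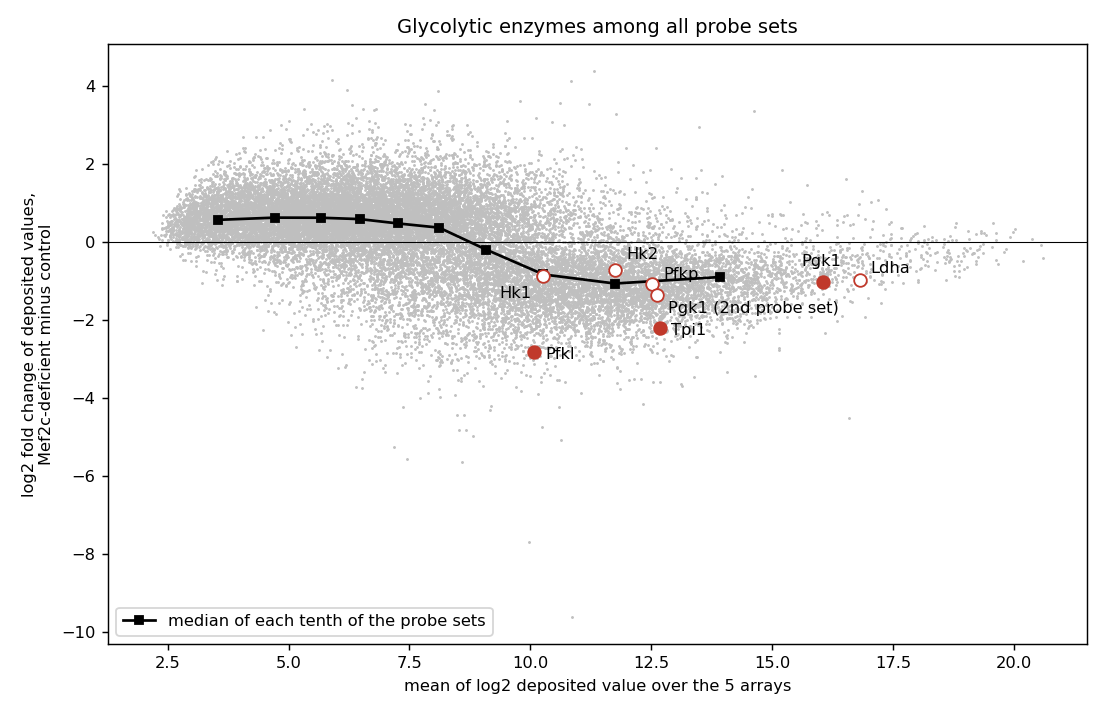
Log2 fold change (vertical axis) against the mean log2 deposited value over the 5 arrays (horizontal axis) of all 23809 probe sets (grey) and of the 8 glycolytic enzyme probe sets (red, filled where called), with the median of each decile of probe sets by level (black squares). The medians run from 0.56 in the dimmest decile to −0.90 in the brightest. *Pfkl* and *Tpi1* lie well below this line, and the other enzymes lie near it.

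The level of the fold changes moved with the scaling of the arrays while *Pfkl* and *Tpi1* stayed the lowest 2 genes in 4 scalings and as deposited. Quantile normalization of the deposited values gave a median of −0.52 for the 8 probe sets and 0.03 for all probe sets. Cyclic loess gave −0.22 and 0.01, centring on housekeeping genes −0.32 and 0.92, and centring on array medians −1.29 and −0.04. With median centring *Hk1* (−1.12), *Pfkp* (−1.32) and *Ldha* (−1.22) were called as well, and 6 probe sets in all. *Hk2* changed sign, to 0.21 with cyclic loess and 0.010 with housekeeping centring.

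**Figure D4:**
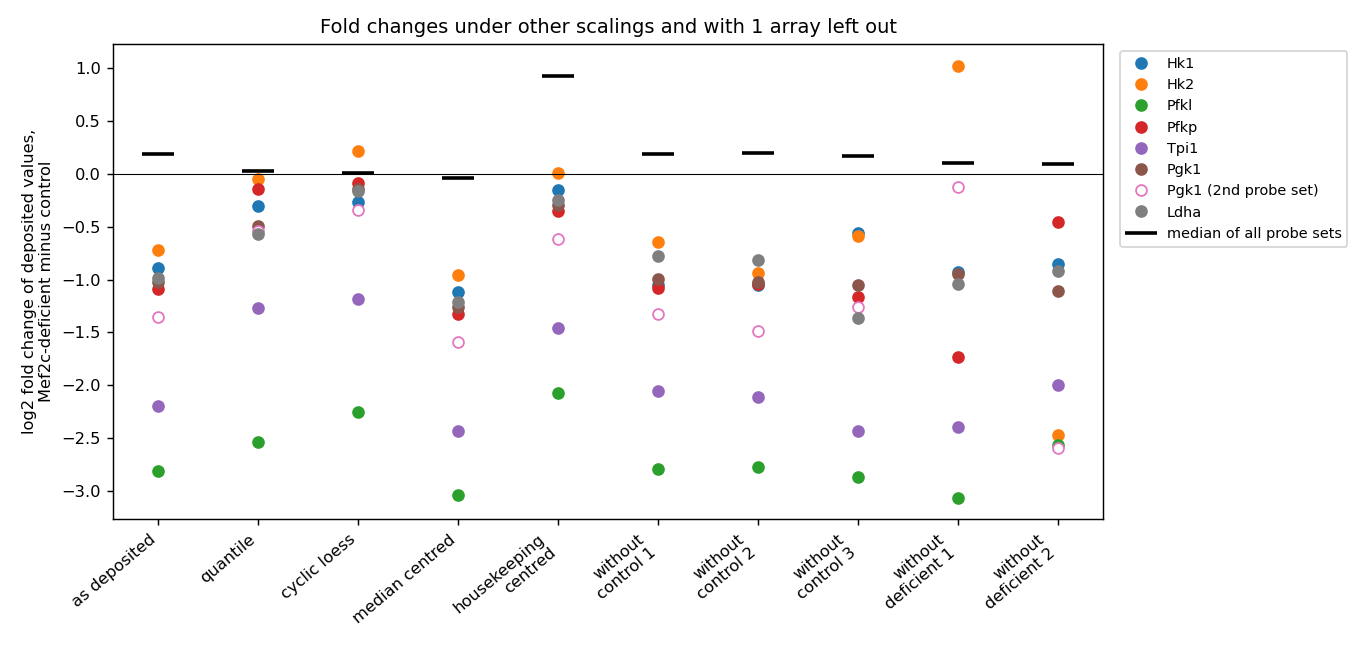
Log2 fold change of the glycolytic enzyme probe sets (vertical axis) as deposited, under 4 other scalings and with each array left out in turn (horizontal axis). Black bars mark the median of all probe sets. *Pfkl* ranged from −3.06 to −2.07 and *Tpi1* from −2.44 to −1.18, whereas *Hk2* moved from −2.47 to 1.02 with the *Mef2c*-deficient array left out.

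The other enzymes of the pathway showed no common direction. Of 15 measured, 1 was called lower, 2 higher and 12 not called, where 13.5% of all probe sets were called lower and 10.1% higher, and the median log2 fold change was 0.11 (*Gapdh* and *Eno3* were not measured here). The counts of lower and higher calls became 0 and 4 with quantile or loess scaling and 0 and 6 with housekeeping centring, and without *Mef2c*-deficient replicate 2 the lower count was 5. *Ldhb*, the other main lactate dehydrogenase subunit, had values of 920, 951 and 909 on the control arrays and 420 and 422 on the *Mef2c*-deficient arrays, a log2 fold change of −1.14 (SE 0.22, limma adjusted p = 0.102). The groups were tight and did not overlap, but the call was lost after quantile normalization (−0.94), cyclic loess (−0.82) and housekeeping centring (−0.40), and with the fold threshold set in signal. *Ldhc*, the testis form, was called higher (1.99, from 111 to 307 on control to 945 and 630 on *Mef2c*-deficient arrays), a call that was lost with array weights and without either *Mef2c*-deficient array. *Hkdc1*, a hexokinase-like gene, was also called higher (1.83) under every alternative run that kept its probe set, at values below the array median on all 5 arrays. It lay in the third decile by level, of which 18.1% of probe sets were called higher. *Pkm*, the pyruvate kinase of most tissues, was picked out after its values were seen, and its values were 59377, 73713 and 49900 on control and 18283 and 93265 on *Mef2c*-deficient arrays. It split the *Mef2c*-deficient arrays around the controls as *Hk2* did, and its fold change of −0.54 (SE 0.74) was not called.

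Among glucose transporters and regulators of glycolysis 4 of 22 measured genes were called lower and 0 higher, against 13.5% and 10.1% of all probe sets, and the median log2 fold change was −0.78 (*Pfkfb1* was not measured here). Of those called, *Myc*, *Egln1* and *Egln2* lay in the brightest decile, where 31.8% of probe sets were called lower and 0.252% higher. *Pdk1* lay in the fourth decile, where 3.11% were called lower. The 4 became 8 with median centring, 2 with quantile or loess scaling and 1 with housekeeping centring. The higher count became 2 with housekeeping centring and without *Mef2c*-deficient replicate 1, and 1 without control replicate 3. *Myc*, which encodes a transcription factor that activates many glycolytic genes, had values of 50348, 41281 and 22264 on the control arrays and 5783 and 7696 on the *Mef2c*-deficient arrays. All controls were more than 2-fold above both *Mef2c*-deficient arrays, and the log2 fold change was −2.43 (SE 0.43, limma adjusted p = 0.102), called under every alternative run. *Egln1* and *Egln2*, the oxygen-sensing prolyl hydroxylases that mark HIF-1α for degradation, were called lower by 1.48 (SE 0.30) and 1.02 (SE 0.36) on the log2 scale. The call of *Egln2* was lost under most alternatives, and that of *Egln1* after quantile normalization (−0.53), cyclic loess (−0.45) and housekeeping centring (−0.74). *Pdk1*, a kinase that inhibits pyruvate dehydrogenase, was called lower (−1.28, SE 0.27) at values below the array median on all arrays, but not with housekeeping centring (−0.55) or with the fold threshold set in signal. *Hif1a* was not called (−1.08, SE 0.62), nor was *Slc2a1*, the basal glucose transporter GLUT1 (−0.27, SE 0.49). *Slc2a3*, the transporter GLUT3, was 808, 887 and 631 on control and 465 and 13453 on *Mef2c*-deficient arrays. It was high on *Mef2c*-deficient replicate 2 only, which also had the high sums of T cell, dendritic and myeloid markers. *Hif1a*, *Slc2a1* and *Slc2a3* were named after their values were seen.

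Of 7 measured pentose phosphate pathway genes, a branch that leaves glycolysis at glucose 6-phosphate, 1 was called lower and 0 higher (*G6pdx* was not measured here), a share near the 13.5% of all probe sets called lower. The lower count was 2 without either *Mef2c*-deficient array, and the higher count was 2 with housekeeping centring and 1 with quantile or loess scaling or without *Mef2c*-deficient replicate 1. The gene called lower as deposited was *Rpe*, ribulose phosphate epimerase. It had values of 1702, 1634 and 2312 on control and 634 and 203 on *Mef2c*-deficient arrays and a log2 fold change of −2.37 (SE 0.55, limma adjusted p = 0.107). Its call held under every alternative run. Of 7 measured genes for the entry of pyruvate into mitochondria and its conversion to acetyl-CoA, 4 were called lower and 1 higher (*Mpc2* and *Pdp2* were not measured here), where 13.5% of all probe sets and 31.8% of the brightest decile were called lower and 10.1% of all probe sets higher. The 4 became 1 without control replicate 2 or 3, 2 without control replicate 1 or with quantile or loess scaling, and 0 with housekeeping centring. *Pdha1*, the catalytic subunit of pyruvate dehydrogenase, had values of 18613, 18259 and 14758 on the control arrays and 5086 and 5845 on the *Mef2c*-deficient arrays. The groups were far apart, and the log2 fold change was −1.65 (SE 0.25, limma adjusted p = 0.102), but it passed neither after quantile normalization (−0.74) and cyclic loess (−0.63) nor with housekeeping centring (−0.91). *Pdhb* (−1.73), *Pdhx* (−1.60) and *Pdp1* (−2.35), a subunit, an anchoring component and the activating phosphatase of the same complex, were called lower, and each call was lost when any of several single arrays was left out, *Pdp1* lying below the array median throughout. *Dld*, the dihydrolipoyl dehydrogenase component, was called higher (1.51) from values below the array median on all arrays, and was lost without any 1 control array. It lay in the third decile by level, of which 18.1% of probe sets were called higher.

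**Figure D5:**
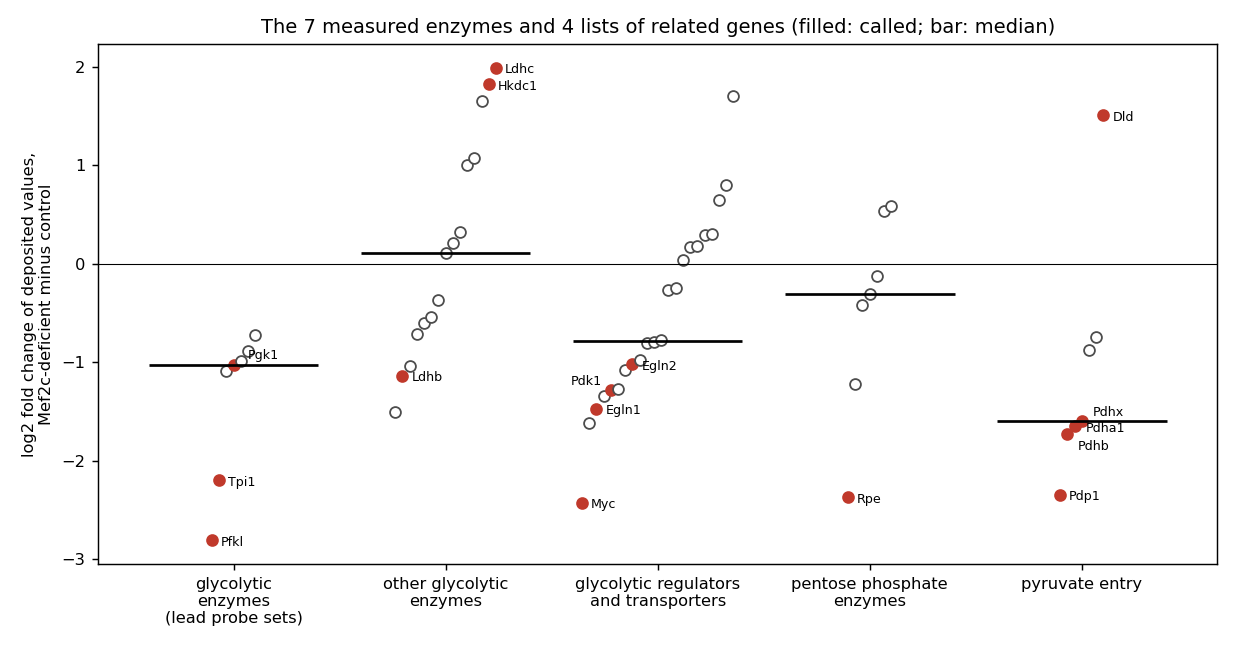
Log2 fold change (vertical axis, *Mef2c*-deficient minus control) of the lead probe set of each gene, for the 7 measured glycolytic enzymes and 4 lists of related genes (horizontal axis), with a bar at each median and called genes filled and named. The medians were −1.03 for the 7 enzymes, 0.11 for the other glycolytic enzymes, −0.78 for regulators and transporters, −0.31 for the pentose phosphate pathway and −1.60 for pyruvate entry. The lists were not matched for level.

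The genes whose profile over the 5 arrays was most like the mean profile of the 7 lead probe sets were *Arl1*, *Tmem234*, *Snrpa1*, *Rars* and *Urod*. Their root mean square difference from it was 0.029 to 0.068 in log2 units, where the median over 17323 genes was 0.868. The enzymes themselves differed more from their own mean, from 0.179 for *Pgk1* and 0.428 for *Ldha* to 0.73 for *Pfkl* and 1.13 for *Hk2*. With 5 arrays in 2 groups this likeness mostly describes a drop of the same size between the groups.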

How the data were processed

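RNA of sorted pro-B cells was measured on Affymetrix mouse genome arrays, 3 control and 2 *Mef2c*-deficient, grouped by the genotype in the labels. The authors made the deposited intensity values by robust multiarray averaging (RMA) and tested them with limma, per the study's methods and processing notes. The methods also left out probe sets without a present call on enough arrays. The values ran to 2322555, above 65535, the largest value a scanner records, and their natural logarithms from 1.15 to 14.7, so that their logarithm base is inferred. Their number, 5 arrays, limits the precision.

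Here log2 of the 23809 deposited values per array, without 26 control probe sets, was fitted with limma as *Mef2c*-deficient minus control, without covariates. The versions were R 4.3.3 and limma 3.58.1, and the fit was tested on simulated data. P-values were adjusted by Benjamini-Hochberg over all probe sets. Of these, 17621 had 1 gene symbol, 516 several and 5672 none listed. The lead probe set of a gene had its highest mean. The text names all probe sets of the chosen genes, *Mef2c*, the called genes of 4 related lists and the 5 genes most like the mean profile. Further genes of these lists were named by their level or after their values were seen. The genes and lists were chosen with earlier results of these data known. The alternatives were a further quantile normalization, cyclic loess, centring on array medians or on 8 housekeeping genes, array weights, leaving out dim probe sets, 1 probe set per gene, the methods' t-test, a fold of 2 in signal, the replicate number as a block and leaving out each array. They were extended to the related lists after the data were seen.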

Additional observations from a re-analysis of the deposited data

How the results depend on the processing

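*Pfkl*, *Tpi1* and, among the related genes, *Myc* and *Rpe* kept their calls under every alternative run, and *Hkdc1* under each that kept its probe set. *Hkdc1* lay in the third decile by level, where 18.1% of all probe sets were called higher. Glycolytic enzyme probe sets called lower (3) were 6 with arrays centred on their medians and 2 (without control replicate 1) to 5 (without *Mef2c*-deficient replicate 2) with 1 array left out, and those among lead probe sets 2 to 4. Median centring also gave 6 lead probe sets. With quantile, loess or housekeeping scaling, or the fold threshold set in signal, 2 were left. Their median (−1.06) was −0.52, −0.22, −1.29 and −0.32 with quantile, loess, median and housekeeping scaling, −1.20 with array weights, −1.21 with the replicate block, and −1.56 to −0.995 with 1 array left out. *Mef2c* (−1.34) was not called with quantile (−0.43), loess (−0.32) or housekeeping scaling (−0.60), array weights (−1.26) or a fold of 2 in signal (−1.34). *Hk2* (−0.73) reversed with loess (0.21) and housekeeping centring (0.010), and ranged from −2.47 to 1.02 with 1 array left out.

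All probe sets called lower (3206) were 1832 with quantile and 1832 with loess scaling, 833 with housekeeping centring, 1934 with the methods' t-test and 2025 at a fold of 2 in signal. Those called higher (2401) were 1591 with loess, 1558 with median and 10336 with housekeeping scaling, 1460 with array weights, 576 without dim probe sets, 1368 with the t-test, 1089 at a fold of 2 in signal, 1022 with the replicate block and 1404 (without control replicate 3) to 4389 (without *Mef2c*-deficient replicate 2) with 1 array left out. Probe sets at an adjusted p under 0.05 in limma, 0 as deposited, were 6041 with housekeeping centring, 1386 without *Mef2c*-deficient replicate 1 and 2524 without replicate 2, where 1 array stood for the group and the spread came from the controls alone. Among related genes that were not called, *Pkm* turned to 0.12, 0.36 and 0.19 and *Slc2a1* to 0.61, 0.73 and 0.47 with quantile, loess and housekeeping scaling, and with 1 array left out *Pkm* ranged from −1.72 to 0.63, *Slc2a1* from −0.91 to 0.38 and *Slc2a3* from −0.72 to 4.13. Replicate numbers were not shown to pair the arrays: deviations from the group means of arrays numbered 1 correlated at 0.105 and of those numbered 2 at −0.0307, and the block leaves control replicate 3 without a partner. With it the *Pgk1* log2 fold change was −1.05 and lost its call and *Ldha* was called at −1.36. The causes were not tested. With 2 *Mef2c*-deficient arrays, differences within a fold of 2 could often not be told from the spread.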

Other observations

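*Gapdh*, the glyceraldehyde 3-phosphate dehydrogenase of glycolysis, was seen only through a control probe set of the array, which stands outside the comparisons. Its deposited values were 281617, 287645 and 180902 on the control arrays and 159573 and 103867 on the *Mef2c*-deficient arrays. Both *Mef2c*-deficient arrays were below every control, by 0.93 in mean log2 (−0.93), and no test was made. The same order of arrays held for 61.2% of the brightest decile of probe sets, whose median log2 fold change was −0.90.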
